A study of Mus musculus with 6 samples.

Results

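The genes described here are 10 core genes of the Notch pathway: the receptor genes Notch1, Notch2 and Notch3, the ligand genes Dll1, Dll3 and Jag1, and the Hes and Hey family genes Hes1, Hes5, Hes6 and Hey1. They were taken by symbol from the deposited count table, where 10 of 10 had a row among 36291 gene rows, and all 10 passed the filter on low counts. In these libraries Jag1 and Dll1 were higher in knockout cells, none of the 3 receptor genes was called different, and Hes1 lay lower in each knockout library without passing the test.

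In the developing forebrain a cell that shows a Delta or Jagged ligand on its surface binds Notch receptors on its neighbours. The bound receptor is cut, and its inner part enters the nucleus, joins the DNA-binding protein RBPJ and switches on Hes and Hey genes, whose products repress proneural genes. Through this exchange some ventricular zone cells stay progenitors while others, which carry the proneural genes and the ligands, leave the cycle as neurons.

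The series (Sip1 in cortical interneuron migration) sequenced poly-A RNA from green fluorescent (eGFP+) cells, sorted at E14.5 out of the telencephalon of mice of the Swiss strain. There were 3 WT and 3 KO libraries, and the sorted cells of both genotypes carried the fluorescence left by an Nkx2-1-iCre driver, which acts in the ventral telencephalon, where many cortical interneurons are born. The series' design text names the knockout Sip1|Nkx2-1, Sip1 being an older name of the transcription factor gene Zeb2. The labels give no floxed allele, no reporter line and no number of embryos for each library. Each library carries the number K77, K79 or K80, 1 WT and 1 KO library for each number, and the labels explain neither it nor the second number that each title adds. No label ties the libraries of a genotype to different embryos, and each p-value therefore reflects only how far these libraries spread.

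The libraries held 8323531 to 11069437 gene counts. Lhx6, a transcription factor gene of the interneuron lineage that leaves this region, stood at 933 to 1170 CPM in WT and 1010 to 1270 CPM in KO libraries, where CPM is the count scaled to a common library size. The neuronal gene Gad1 stood at 318 to 390 CPM in WT and 306 to 381 CPM in KO. Nkx2-1, the gene of the driver, was not alike in the genotypes, at 320 to 440 CPM in WT and 590 to 659 CPM in KO. Zeb2 fell to 0.464 of its WT level (log2 fold change -1.11, SE 0.138, edgeR adjusted p = 0.00116), with no overlap between genotypes. WT K79 stood apart in sex-linked genes, with 26109 counts of the female-specific transcript Xist against 13 to 28 in the other 5 libraries, and 0 to 3 counts of each of the Y-linked genes Ddx3y, Eif2s3y, Kdm5d and Uty, so it did not share its embryos with the other WT libraries. Without WT K79 the count of called members was the same. Because these are bulk libraries, fewer cells of a type and less RNA per cell cannot be told apart in any result below.

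Levels of different genes were compared only per length, as CPM per kilobase of exon, with exon lengths from GENCODE M21, which is later than the annotation behind the counts. Hes6, whose product opposes HES1, was highest, at 50.8 ± 3.57 in WT (SD, n = 3), and Dll1 followed at 20.6 ± 1.24. Dll3 stood at 16.7 ± 2.06, Notch1 at 15.0 ± 2.58, Hes5 at 11.6 ± 3.56 and Notch2 at 7.41 ± 1.44. Hey1 at 5.58 ± 0.849, Notch3 at 4.60 ± 1.43 and Jag1 at 4.31 ± 0.0732 lay close together, and Hes1 was lowest at 2.73 ± 0.247.

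In that order the WT libraries of Hes6 lay above all those of Dll1, those of Dll1 just above those of Dll3, and those of Hes1 below all others. Each other pair of neighbours, from Dll3 down to Jag1, overlapped. In KO the order was the same but for Jag1, which at 6.25 ± 0.730 passed Hey1 (5.89 ± 0.219) and Notch3 (5.05 ± 0.786), with overlapping libraries among the 3 genes.

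**Figure D1:**
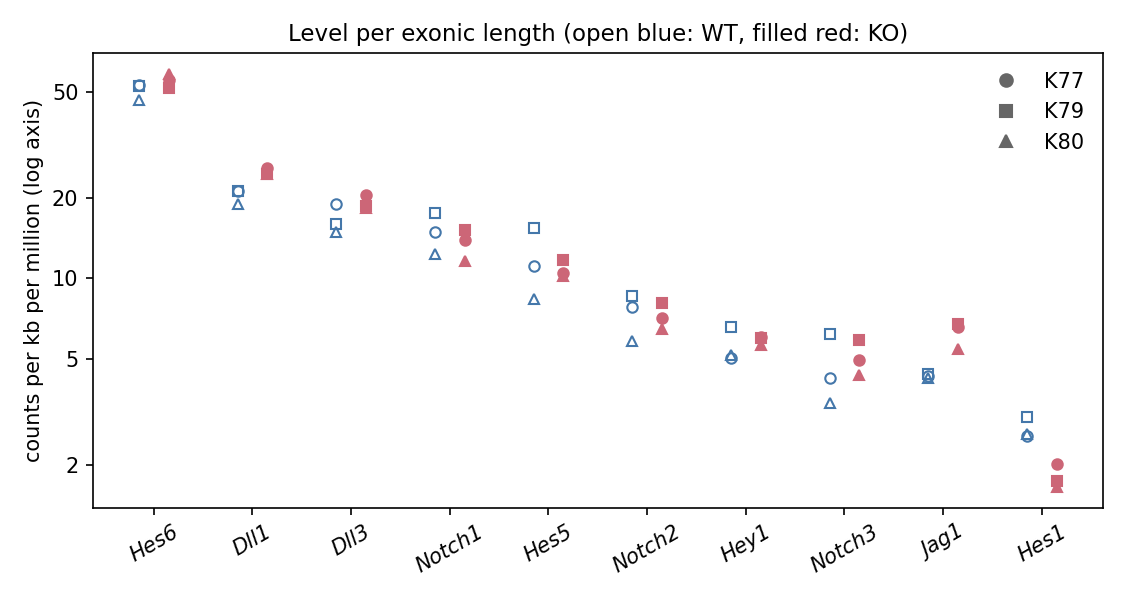
CPM per kilobase of exon (log axis) for the 10 genes, ordered by the WT mean, with 1 point per library (open blue WT, filled red KO, marker shape the K number). Hes6 sits highest and Hes1 lowest in both genotypes, and the KO points of Dll1 and Jag1 lie above their WT points.

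Of the 10 genes 2 rose in KO, 0 fell and 8 were not called by edgeR at an adjusted p of 0.05. Over all 13835 genes tested, 6.27% were called, 3.64% higher and 2.62% lower. DESeq2 likewise called 2 higher and 0 lower, with 6.84% of all genes called, 4.03% higher and 2.81% lower, and limma voom gave the same counts of members. Of genes with a lower level, 1, Hes1, was at an unadjusted p under 0.05. The median log2 fold change of the 10 was 0.10, against -0.01 over all genes tested. In 3 of the 10 the libraries of the genotypes did not overlap, 2 with all KO libraries higher and 1 with all KO libraries lower, where 23.2% of all tested genes did not overlap, 11.8% with KO higher and 11.4% with KO lower.

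The ligand genes held both calls. Jag1 encodes a Jagged ligand and Dll1 a Delta ligand that activates Notch on neighbouring cells, whereas the product of Dll3, a Delta relative, is known mostly as an inhibitor of Notch signalling within the cell that makes it.

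For Jag1 the WT libraries K77, K79 and K80 held 231, 266 and 260 counts, or 25.2, 25.5 and 24.7 CPM. In KO it had 319, 399 and 348 counts, or 38.4, 39.4 and 31.5 CPM. The WT libraries lay within 1 CPM of each other and each KO library was above them all. Jag1 rose 1.45-fold (log2 fold change 0.53, SE 0.102, edgeR adjusted p = 0.0121), with KO over WT ratios of 1.52, 1.54 and 1.28 for K77, K79 and K80. The call was lost without KO K79 (adjusted p = 0.0694). In the authors' deposited table Jag1 was also higher, at a log2 fold change of 0.54 with an adjusted p of 0.00307.

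For Dll1 the WT libraries, in the same order, held 826, 932 and 850 counts, or 90.1, 89.4 and 80.7 CPM. In KO it had 909, 1051 and 1145 counts, or 109, 104 and 104 CPM. The KO libraries lay close together and above every WT library, of which WT K80 was the lowest. Dll1 rose 1.22-fold (log2 fold change 0.28, SE 0.0661, edgeR adjusted p = 0.0325), and the KO over WT ratio was 1.21, 1.16 and 1.29 for K77, K79 and K80. This call held without WT K79 (adjusted p = 0.0372) and was lost without WT K77 (0.0611), WT K80 (0.0956), KO K77 (0.0997), KO K79 (0.101) or KO K80 (0.109). In the authors' deposited table Dll1 missed 0.05 with an adjusted p of 0.0897. In GENCODE M21 867 exonic bases of Dll1 overlap A930024N18Rik on the opposite strand, which had 47 to 88 counts. Whether counting used strand is not stated. It is therefore not known whether reads on the shared bases went to either gene or were left out as ambiguous, and Dll1 is uncertain to that extent.

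Dll3 stood at 54.1, 45.6 and 42.8 CPM in WT K77, K79 and K80 and at 58.4, 53.4 and 52.2 CPM in KO. The genotypes overlapped, since WT K77 lay above KO K79 and KO K80, although KO was above WT within each K number. Its log2 fold change of 0.20 (SE 0.0977, 95% interval -0.01 to 0.42, edgeR adjusted p = 0.311) was not called.

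The promoters of the 2 genes that rose are shown because both carry the E-box that Hes and Hey repressors bind, and that of Hes5 because it alone, among the 8 members with a listed promoter, carries the RBPJ core. Each is the 250 bases before a RefSeq start site (GRCm38.p6, minus strand for Dll1 and Jag1, plus strand for Hes5), 5′ to 3′, with the Hes and Hey E-box CACGNG, the E-box CACCTG and the RBPJ core TGGGAA in capitals wherever they lie on either strand. They lie at chr17:15376933-15377182 (Dll1, the upstream of its 2 listed starts), chr2:137116521-137116770 (Jag1) and chr4:154960673-154960922 (Hes5).
Dll1: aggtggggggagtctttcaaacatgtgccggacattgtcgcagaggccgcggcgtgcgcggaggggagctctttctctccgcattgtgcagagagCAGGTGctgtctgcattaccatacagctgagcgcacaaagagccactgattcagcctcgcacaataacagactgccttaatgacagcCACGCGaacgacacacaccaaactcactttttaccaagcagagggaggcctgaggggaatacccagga
Jag1: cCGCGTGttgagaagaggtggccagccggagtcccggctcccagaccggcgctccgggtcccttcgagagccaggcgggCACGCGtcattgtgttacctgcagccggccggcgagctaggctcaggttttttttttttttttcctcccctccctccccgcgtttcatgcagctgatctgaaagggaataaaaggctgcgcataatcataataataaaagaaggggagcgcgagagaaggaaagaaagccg
Hes5: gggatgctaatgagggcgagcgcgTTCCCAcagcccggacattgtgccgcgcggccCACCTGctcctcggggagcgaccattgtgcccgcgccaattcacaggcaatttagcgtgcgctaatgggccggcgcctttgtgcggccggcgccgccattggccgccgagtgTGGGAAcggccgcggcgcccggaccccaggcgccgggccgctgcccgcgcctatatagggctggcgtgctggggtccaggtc

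The Hes and Hey E-box began 68 bases before the Dll1 start, and the Jag1 window held it 171 bases before the start and, on the other strand, 249 bases before it. CACCTG, an E-box that ZEB2 can bind, lay on the other strand of the Dll1 window, 155 bases before the start, and was not among the letters of the Jag1 window. Shorter forms of this E-box were not searched in either window. Hes5 had the RBPJ core TGGGAA 82 bases before its start and the same core on the other strand 226 bases before it, with CACCTG at 194 bases.

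RefSeq windows were found for 8 of the 10 genes, 10 windows in all, and not for Hes1 and Hey1. CACCTG was in 4 of the 8 genes (Dll1, Dll3, Hes5 and Hes6), or in 4 of their 10 windows, and in 17.2% of all 32851 windows. Dll1 and Hes6 have 2 windows each, so the shares of windows are the ones to set beside the background. TGGGAA was in 1 of the 10 windows and in 21.6% of all windows. The N-box CACNAG bound by Hes proteins was in 4 of the 10 (Notch1, Notch2, Notch3 and 1 of Hes6) and in 36.7% of all windows. The Hes and Hey E-box CACGNG was in 6 of the 10 (Notch2, Notch3, both of Dll1, Jag1 and 1 of Hes6) and in 23.5% of all windows. Both strands were searched, and the letters CACGAG in the Notch3 window count for the N-box and for the Hes and Hey E-box alike. These are matches of letters, and binding was not measured.

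**Figure D2:**
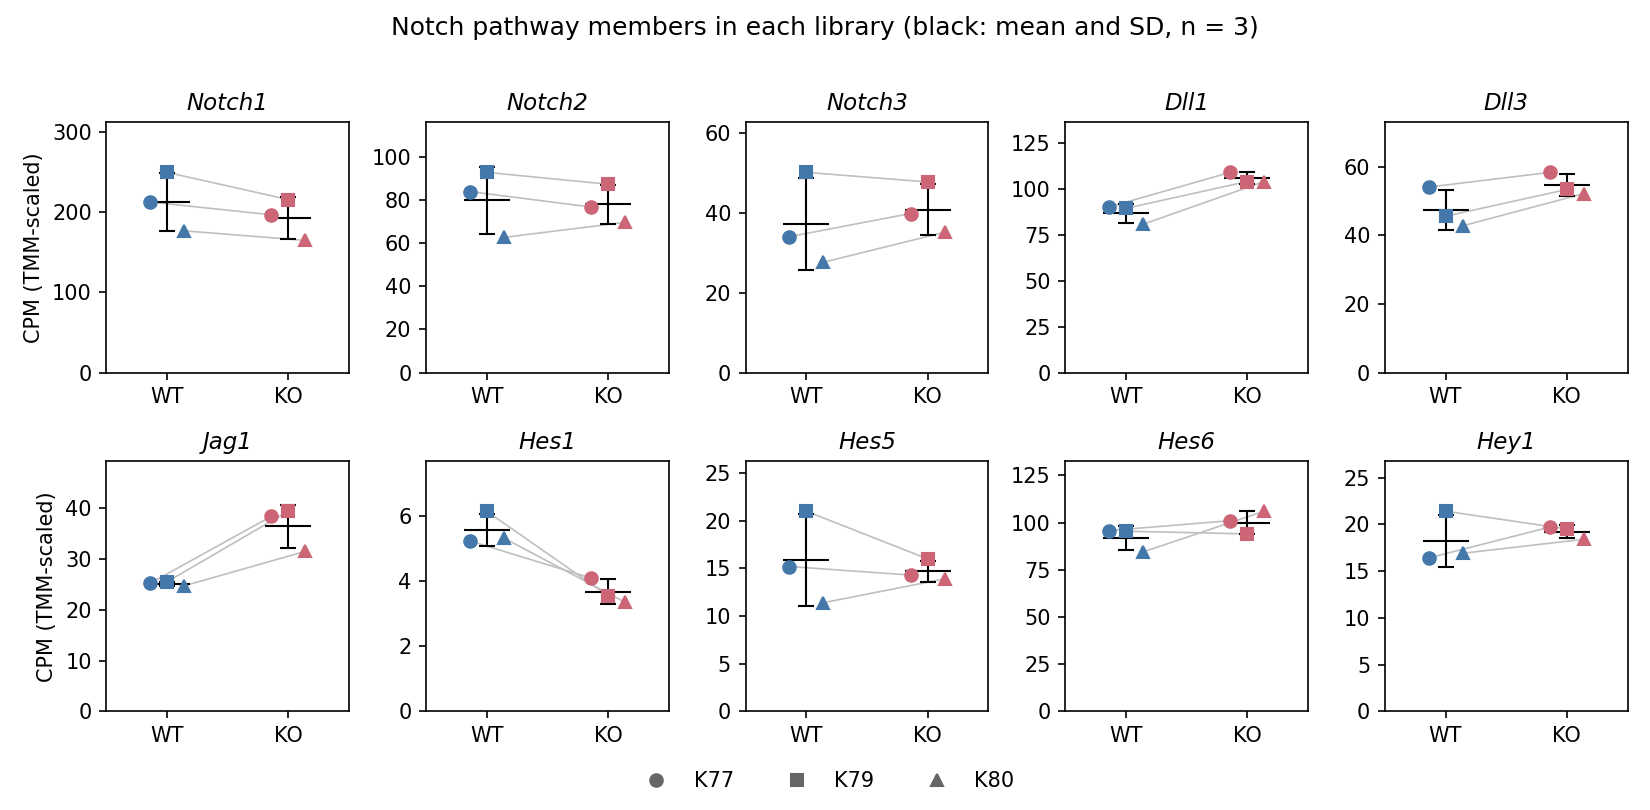
CPM of each gene in the 6 libraries (blue WT, red KO, shape the K number), with grey lines joining the libraries of a K number and black bars for mean and SD (n = 3), each panel on its own axis from 0. Jag1 and Dll1 are higher in all KO libraries, Hes1 is lower in all of them, and the 3 receptor genes keep the order K79, K77, K80 in both genotypes.

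The receptor genes were not called. Notch1, the main receptor of neural progenitors, stood at 213, 250 and 177 CPM in WT K77, K79 and K80 and at 197, 216 and 165 CPM in KO. The libraries of the genotypes overlapped, and within each K number KO was below WT, at ratios of 0.928, 0.864 and 0.933. Its log2 fold change was -0.15 (SE 0.127, 95% interval -0.43 to 0.14, edgeR adjusted p = 0.622).

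Notch2, a receptor of the same progenitors, stood at 84.0, 92.9 and 62.7 CPM in WT and at 76.8, 87.4 and 69.7 CPM in KO, in the order K77, K79, K80. WT K80 was the lowest library and WT K79 the highest, with the KO libraries between them. The log2 fold change was -0.03 (SE 0.136, 95% interval -0.34 to 0.27, edgeR adjusted p = 0.932).

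Notch3, which is also the receptor of pericytes and vascular smooth muscle, stood at 34.0, 50.1 and 27.6 CPM in WT K77, K79 and K80 and at 39.8, 47.7 and 35.1 CPM in KO. The WT libraries spanned the KO libraries. Its log2 fold change was 0.13 (SE 0.195, 95% interval -0.31 to 0.57, edgeR adjusted p = 0.797), and 0.41 without WT K79 (adjusted p = 0.149). Pericyte and smooth muscle markers were few: the 8 genes summed to 17.3 to 32.1 CPM in WT and 17.8 to 22.5 CPM in KO, edgeR tested 4 of them and called 0, with 0 at an unadjusted p under 0.05, and 3 stayed under 1 CPM in every library, among them Acta2, the smooth muscle actin gene. Over all genes tested edgeR called 6.27%. The part of these markers in the Notch3 level was not tested. In GENCODE M21 Notch1 shares exonic bases on the opposite strand with 0610009E02Rik and Gm13568, which had 0 to 7 and 0 counts. Notch2 overlaps Gm42820 on the same strand and Notch3 overlaps Gm17276 on the opposite strand, and neither of those genes had a row of its own in the count table.

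Among the Hes and Hey genes, Hes1 was the one whose genotypes did not overlap. Hes1, a repressor that Notch switches on and that keeps progenitors from differentiating, was read 48, 64 and 56 times for WT K77, WT K79 and WT K80, or 5.23, 6.14 and 5.32 CPM. In KO it had 34, 36 and 37 counts, or 4.09, 3.55 and 3.35 CPM. All KO libraries were below all WT libraries. The log2 fold change was -0.61 (SE 0.185, 95% interval -1.02 to -0.20) at an edgeR adjusted p of 0.093, and at the 0.05 threshold no alternative fit called it (adjusted p 0.0874 to 0.345). In the authors' deposited table Hes1 had an adjusted p of 0.231.

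Hes5, another Notch-induced repressor of radial glia, stood at 15.2, 21.0 and 11.4 CPM in WT K77, K79 and K80 and at 14.3, 16.0 and 13.9 CPM in KO. The WT libraries spread past the KO libraries on both sides. The log2 fold change was -0.11 (SE 0.199, 95% interval -0.55 to 0.34, edgeR adjusted p = 0.839) and turned to 0.15 without WT K79. In GENCODE M21 433 exonic bases of Hes5 overlap Gm20421 on the opposite strand, which had no row of its own in the count table.

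Hes6, which is not a direct Notch target and promotes neuronal differentiation, stood at 95.7, 95.4 and 84.4 CPM in WT and at 101, 94.0 and 106 CPM in KO, in the order K77, K79, K80. KO K79 fell below 2 WT libraries, and the log2 fold change of 0.13 (SE 0.0745, 95% interval -0.04 to 0.29, edgeR adjusted p = 0.422) was not called. Hey1, a Notch-induced repressor of the Hey subfamily, stood at 16.4, 21.4 and 16.9 CPM in WT and at 19.7, 19.5 and 18.4 CPM in KO. WT K79 was the highest of its 6 libraries, and the log2 fold change was 0.07 (SE 0.126, 95% interval -0.21 to 0.35, edgeR adjusted p = 0.824).

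The libraries also differed by K number, in a way that ran across genotypes for some members. Notch1, Notch2, Notch3, Jag1 and Hes5, 5 of the 10, were highest in K79 and lowest in K80 in WT and in KO alike, and Dll3 kept the order K77, K79, K80 in both. The WT order of Jag1 rests on close values, 25.2, 25.5 and 24.7 CPM in K77, K79 and K80. The same order of K numbers in both genotypes was thus seen in 6 of 10 members, and in 22.9% of all tested genes. With the K number as a block, which takes this spread out, the SE of Notch1 went from 0.127 to 0.0504 and its adjusted p to 0.125. The block called the same 2 members, Jag1 (adjusted p = 0.00474) and Dll1 (adjusted p = 0.0131), while 10.6% of all tested genes were called, 6.13% higher and 4.45% lower.

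The summed markers of radial glia and the ventricular zone, where the receptors and Hes genes are expressed, were ordered by K number in the same way. Over 11 genes they came to 1620, 1800 and 1510 CPM in WT K77, K79 and K80 and to 1550, 1720 and 1460 CPM in KO. Most single markers did not keep that order. Of the 11 genes only Ptprz1 and Sox9 had it in both genotypes, and Sox2, for example, was lowest in K79 among the WT libraries. The endothelial sum also ran K79, K77, K80, at 17.9, 28.4 and 14.9 CPM in WT K77, K79 and K80 and 21.6, 23.1 and 12.6 CPM in KO. It rests on genes with few counts, of which only Kdr and Tie1 had that order in both genotypes. Of the 11 radial glia genes 1, the progenitor gene Gsx2 (log2 fold change 0.80, adjusted p = 0.0171, or 0.0513 without KO K77), was called, higher. With the block 2 were higher, Gsx2 and the glutamate transporter gene Slc1a3 (adjusted p = 0.00651), and 1 was lower, the intermediate filament gene Vim (adjusted p = 0.0218). Genes of cycling cells summed to 1280, 1750 and 1340 CPM in WT and to 1160, 1280 and 992 CPM in KO, with 3 of 10 lower (Ccna2, Mcm6 and Rrm2) and 0 higher by edgeR, or 7 lower with the block. Neuronal genes summed to 9290 to 11100 CPM in WT and 9890 to 10100 CPM in KO, with Gad2 higher and Rbfox3 lower among 9, and Dcx lower as well with the block (adjusted p = 0.0388). Oligodendrocyte precursor genes summed to 126 to 148 CPM in WT and 50.9 to 59.3 CPM in KO, with 5 of 6 lower, or 6 of 6 with the block. Beside these counts, 3.64% of all tested genes were called higher and 2.62% lower by edgeR, or 6.13% and 4.45% with the block. The part of these cell types in the members' levels was not tested.

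**Figure D3:**
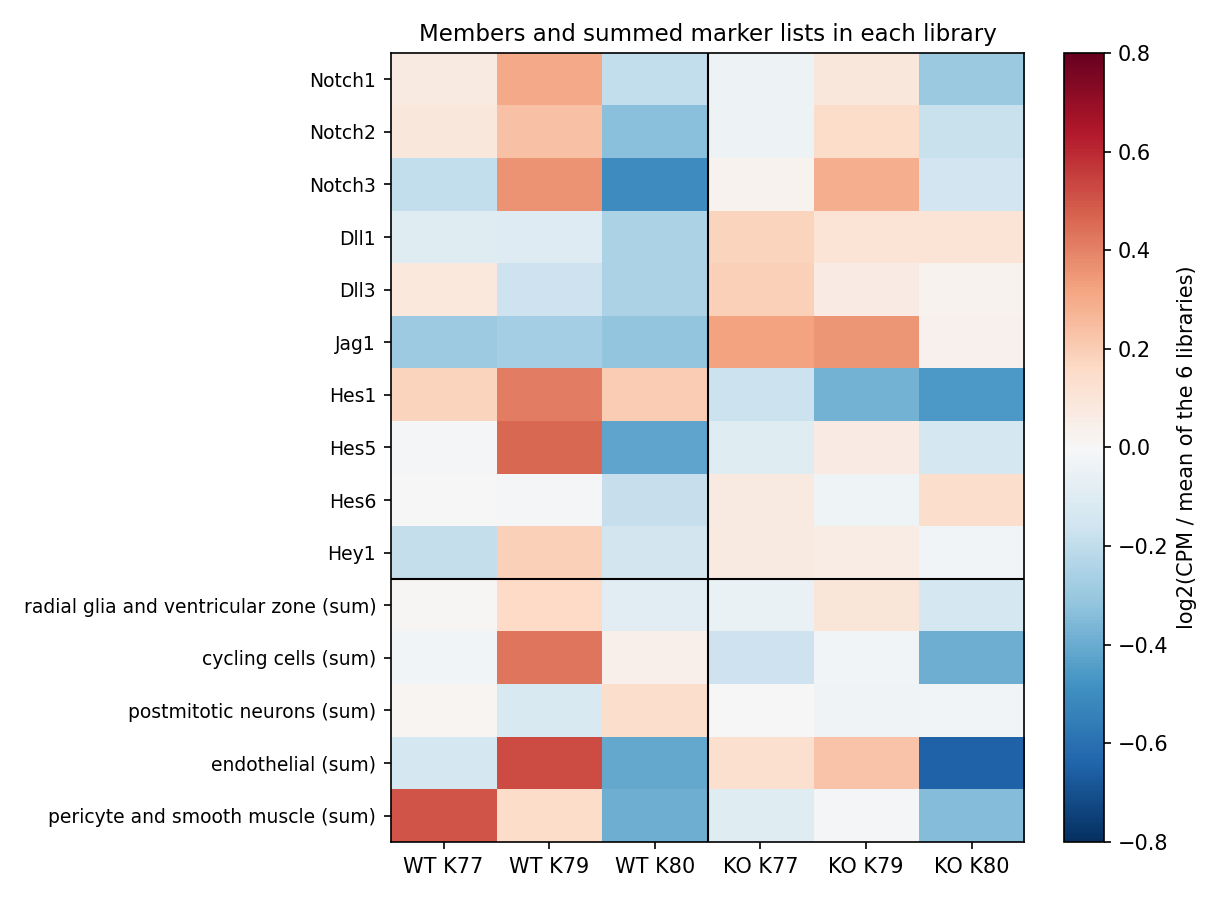
Level of each gene, and of 5 summed marker lists, in each library as log2 of its CPM over the mean of the 6 libraries (red above, blue below that mean). The receptor genes and Hes5 are highest in K79 and lowest in K80 in each genotype, as are the radial glia and endothelial sums. Most single markers within those sums do not keep that order in both genotypes. Jag1, which has that order too but with close WT values, and Dll1 divide by genotype.

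Other receptors and ligands of the pathway included the largest rise. Of 6 genes tested, 2 rose and 0 fell by edgeR, or 4 higher with the K number as a block. Over all genes tested 3.64% were called higher by edgeR, and 6.13% with the block. Dlk1, which encodes a membrane protein built like Delta but lacking the domain that activates Notch, stood at 37.4, 49.8 and 35.9 CPM in WT and at 346, 376 and 398 CPM in KO (3.18 on the log2 scale, SE 0.117, edgeR adjusted p = 1.86e-06). Dner, a neuronal transmembrane protein with Delta-like repeats, stood at 361, 382 and 368 CPM in WT and at 481, 490 and 511 CPM in KO (0.41 on the log2 scale, SE 0.0556, adjusted p = 0.00176). Both kept the call without any 1 library.

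Dll4, a Delta ligand best known from growing blood vessels, and Dlk2, a relative of Dlk1, were singled out after their values were seen. Dll4 counts were low, at 23, 30 and 14 for the WT libraries K77, K79, K80 and at 34, 58 and 48 for the KO libraries, with no overlap on the CPM scale. Its log2 fold change of 1.08 (SE 0.288) missed the call at an edgeR adjusted p of 0.0568, and blocking by K number gave a call (adjusted p = 0.0215), as did leaving out WT K79 (0.0421) or dropping the filter on low counts (0.0135). In the authors' deposited table Dll4 had an adjusted p of 0.00905. The 8 endothelial markers summed to 14.9 to 28.4 CPM in WT and 12.6 to 23.1 CPM in KO. EdgeR called 0 of 7, with 0 at an unadjusted p under 0.05, where 6.27% of all tested genes were called. Dlk2 had a log2 fold change of 0.45 (adjusted p = 0.310), called with the block only (adjusted p = 0.0405). Notch4 and Jag2 were also chosen after their values were seen. For Notch4, a receptor of endothelium, the log2 fold change was -0.09 (adjusted p = 0.902), and for the ligand gene Jag2 it was 0.11 (adjusted p = 0.617).

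The enzymes that prepare receptor and ligand gave no call, where 6.27% of all tested genes were called by edgeR and 6.84% by DESeq2. EdgeR, DESeq2 and limma voom each called 0 of 5 genes of Fringe and O-linked glycosylation, 0 of 4 ubiquitin ligases that drive ligand uptake and 0 of 10 genes of receptor cleavage, with 1 gene at an unadjusted p under 0.05 in each of the 3 lists. Those were Mfng, a Fringe that tunes which ligand a receptor answers to (log2 fold change -0.23, adjusted p = 0.127), Mib1, the ligase of Delta uptake (0.13, adjusted p = 0.246), and Psen2, a catalytic subunit of gamma-secretase (0.49, adjusted p = 0.191). Each of them had no overlap between genotypes, with Mfng lower and Mib1 and Psen2 higher in KO. Each was the only such gene in its list of 5, 4 or 10, and 23.2% of all tested genes had no overlap either. Next by p came Pofut1 (-0.12, adjusted p = 0.431), Neurl1b (0.26, adjusted p = 0.410) and Psenen (0.38, adjusted p = 0.364).

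In the nucleus, 2 of 13 genes of the RBPJ complex and its corepressors rose and 0 fell, where 3.64% of all tested genes rose. Tle4, a Groucho corepressor that Hes proteins recruit, stood at 52.0, 61.7 and 38.1 CPM in WT and at 78.9, 109 and 87.3 CPM in KO (0.86 on the log2 scale, SE 0.167, edgeR adjusted p = 0.0132), a call lost without KO K79 (0.0676). Maml3, a Mastermind coactivator, stood at 34.9, 39.9 and 39.0 CPM in WT and at 44.6, 55.7 and 54.3 CPM in KO (0.44 on the log2 scale, SE 0.101, adjusted p = 0.0298). It lost the call without WT K77 (0.110), WT K80 (0.0582), KO K79 (0.138) or KO K80 (0.140). Rbpj itself, chosen after its value was seen, had a log2 fold change of 0.11 (adjusted p = 0.704).

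Among 9 inhibitors and turnover genes 2 rose and 0 fell, beside the same 3.64% of all tested genes called higher. Dtx4, a Deltex ubiquitin ligase, stood at 62.8, 70.5 and 66.2 CPM in WT and at 81.5, 111 and 102 CPM in KO (0.56 on the log2 scale, SE 0.107, edgeR adjusted p = 0.0119). Leaving out WT K77 (0.0541), KO K79 (0.0587) or else KO K80 (0.0672) ended that call. Numbl, a relative of the Notch inhibitor Numb, stood at 91.8, 87.4 and 79.1 CPM in WT and at 107, 112 and 103 CPM in KO (0.32 on the log2 scale, SE 0.0718, adjusted p = 0.0288). It lost the call without WT K80 (0.0796) or any 1 KO library (0.0683 to 0.135). Nrarp, a feedback inhibitor that Notch induces, was chosen after its value was seen, and its log2 fold change was 0.12 (SE 0.133, adjusted p = 0.698).

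**Figure D4:**
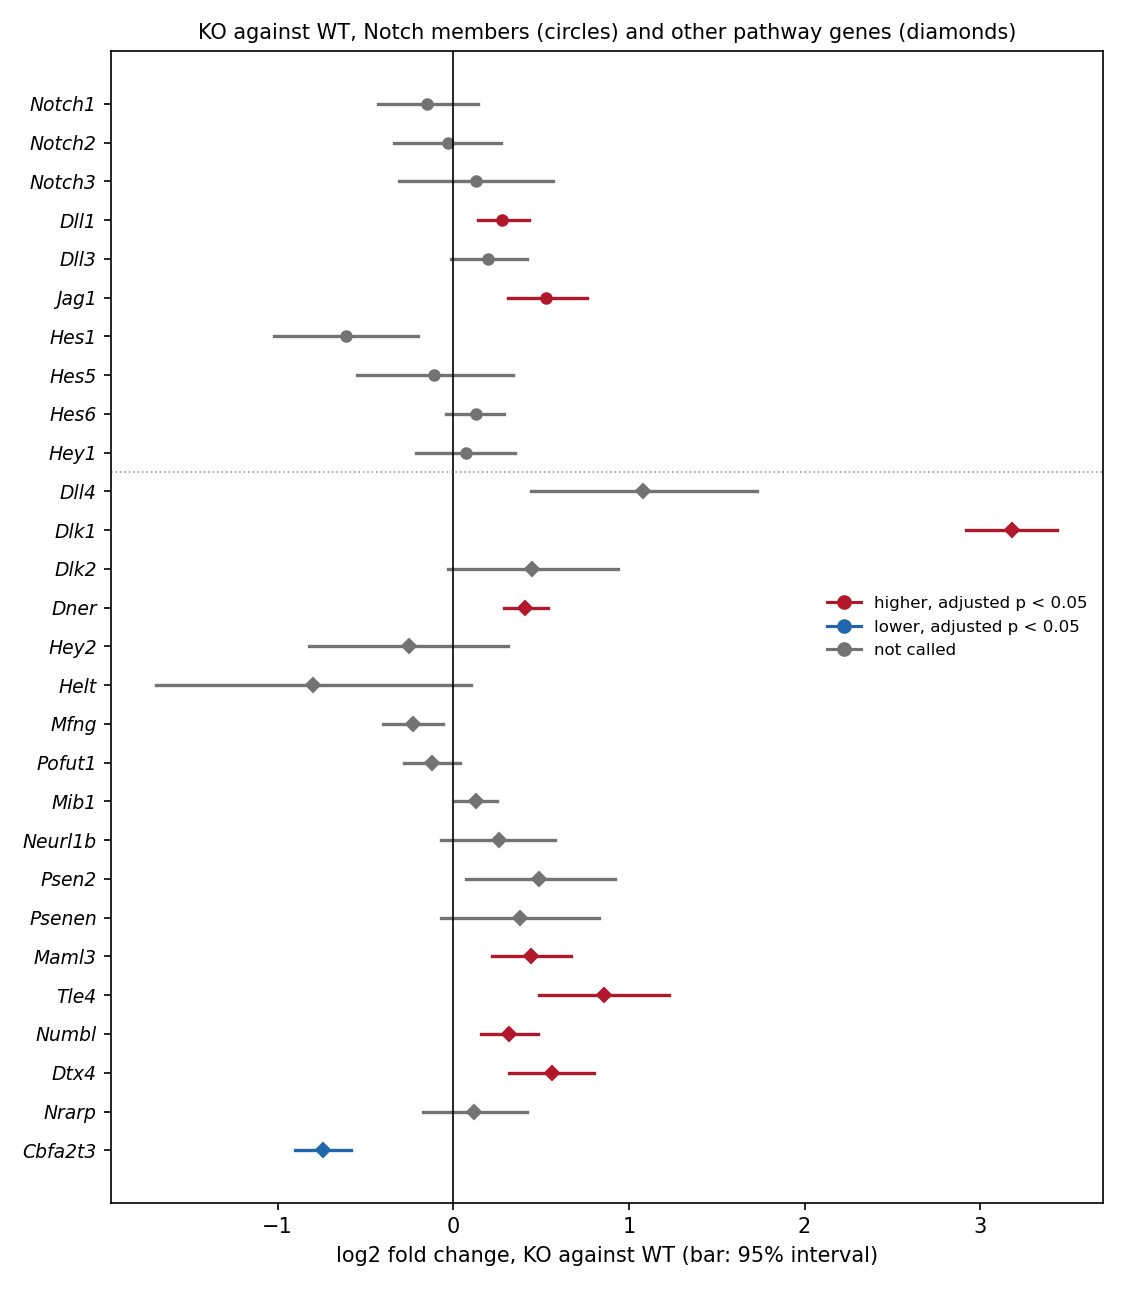
Log2 fold change of KO against WT with its 95% interval for the 10 members (circles) and for other pathway genes named in the text (diamonds), red where called higher and blue where called lower. Jag1 and Dll1 are the called members at 0.53 and 0.28, Dlk1 lies farthest out at 3.18, and Cbfa2t3 is the one gene called lower.

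Of the 8 proneural genes and targets that were tested and are reported here, 1 was called, lower, where 2.62% of all tested genes were. Cbfa2t3, a corepressor gene downstream of proneural factors, stood at 158, 142 and 169 CPM in WT and at 90.9, 95.1 and 93.5 CPM in KO (-0.74 on the log2 scale, SE 0.0717, adjusted p = 0.000276). It kept the call without any 1 library, and without WT K80 another gene, Neurog2, a proneural factor of the dorsal forebrain, was called lower (-0.69 on the log2 scale, adjusted p = 0.00792, against -0.37 and 0.545 with all libraries). Neurog2 was singled out after its values were seen. Markers of cortical glutamatergic neurons, another cell type of the telencephalon, summed to 423, 313 and 199 CPM in WT K77, K79 and K80 and to 218 to 273 CPM in KO, and their part in the Neurog2 values was not tested.

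The remaining Hes and Hey genes had few reads. Hey2 (log2 fold change -0.25, adjusted p = 0.672) and Helt (-0.80, adjusted p = 0.337) were tested. There were 0 calls by edgeR, DESeq2 or limma voom and 0 at an unadjusted p under 0.05, where edgeR called 6.27% of all tested genes. Heyl had 4 to 15 counts in a library, Hes7 at most 2 and Hes3 2 counts in WT K77 alone. Hes2 and the proneural gene Atoh1 had 0 counts in every library, which at the depth of each allows up to 0.272 to 0.361 CPM, counting error only.

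Across the 6 libraries, the genes whose log2 CPM ran most like Dll1 were Gsx2 (Pearson r = 0.994), Slc27a3 (0.993) and Mcf2l (0.991), among genes of at least 5 CPM on average. For Jag1 they were Brwd3 (0.995), Meis1 (0.995) and Prkag2 (0.989). With 6 libraries in 2 genotypes these values rest largely on the step between genotypes and describe these libraries only.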

How the data were processed

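Whole read counts per gene, as deposited by the authors, were used for 3 WT and 3 KO libraries. The count table and the separate count files held the same values in all 36291 rows. Build mm9, DESeq 1.2.2, HTSeq 0.5.3p3 and TopHat 1.2.0 are listed, without role or order, per the submitters' processing notes. Neither the annotation nor the use of strand is stated there. Reads in no gene (19.7 to 21.8%) and ambiguous reads (1.94 to 1.99%) stayed out. The authors' deposited table held p-values, a log2 fold change and a ratio, read as KO over WT because all 777 calls shared with edgeR had the same sign.

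KO was tested against WT in R 4.3.3 with edgeR 4.0.16 (quasi-likelihood, TMM, filterByExpr with a minimum count of 10) over 13835 genes, with Benjamini-Hochberg adjustment at 0.05. Each SE was computed from the log2 fold change and the F statistic. The common biological coefficient of variation was 9.26%. Libraries sharing a K number deviated together (correlation across genes 0.264, 0.206 and 0.184 for K77, K79 and K80), so the number was treated as a possible pairing. The series' design text states no covariate, so the main fit left the number out and the block was an alternative. Calls and SEs given without mention of the block therefore ignore that pairing. Replicates differed beyond sampling noise (chi-square per degree of freedom 3.61 to 10.0). The alternatives were RLE size factors, DESeq2 1.42.0, limma 3.58.1 voom, other filters, thresholds and each library left out. The tests were tried on simulated data.

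Members and lists were chosen with earlier results of these data known. The text names all members, the called genes of each other list (or the 2 lowest p) and, for called members, the 3 genes most alike in log2(CPM + 0.5). Others were named after their values were seen. Promoters are RefSeq's for GRCm38.p6. A gene of the other lists and a motif are not reported here.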

Additional observations from a re-analysis of the deposited data

How the results depend on the processing

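Of 372 log2 fold changes recomputed for 31 genes under 12 alternatives, 343 kept their direction and their side of the threshold, 19 lost the call, 5 gained it and 5 turned sign. The count of 2 called members was the same with RLE size factors, DESeq2, limma voom, both other filters and the replicate block (2 with the K number as a block). It was 3 at an adjusted p under 0.1, where Hes1 was called lower, 0 at an adjusted p under 0.01 and 0 to 2 without 1 library, the 0 without KO K79. The replicate block gave 4 calls among the other receptors and ligands, adding Dll4 and Dlk2, and changed no other call among the pathway genes named. Without 1 library the calls numbered 2 to 3 in that list, 0 to 2 among nuclear genes, 0 to 2 among inhibitors and 1 to 2 among proneural genes. The log2 fold change of Notch2 ranged from -0.18 to 0.09 without 1 library, that of Notch3 from -0.05 to 0.41 and that of Hes5 from -0.30 to 0.15, none of them called. With a library left out 2 remain in that genotype. Hes1 and Dll4 rest on fewer than 70 counts in a library, which limits the precision of their fold changes, and with 3 libraries against 3 no exact permutation test of a single gene can go below 0.1.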
